A study of Mus musculus with 24 samples.

Results

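Genes that STAT5 is known to switch on were followed across sorted bone marrow LSKs (Lin-Sca-1+c-Kit+ stem and progenitor cells) of the mouse. The 8 genes are the feedback inhibitors Cish, Socs1, Socs2 and Socs3, the serine and threonine kinases Pim1, Pim2 and Pim3, and the cytokine Osm (oncostatin M). They were taken by symbol from the read count table and make up 8 of its 24091 genes. The set was chosen with earlier results of these data known. All 8 were among the 13520 genes with enough counts to be tested.

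The LSKs came from 24 mice on the B6 background, 6 in each of 4 groups with 3 females and 3 males per group: WT, miR-142 KO (labelled Mir142 KO; miR-142-/- in the germline), CP CML (labelled BCR-ABL+; miR-142 wild type) and BC CML (labelled Mir142 KO BCR-ABL+). Chronic phase (CP) and blast crisis (BC) are the study's names for the latter pair, and each library has a mouse number of its own. BCR-ABL is carried by the SCLtTA/BCR-ABL transgene pair, in which the SCL promoter drives the tet-off activator, and it was induced for 2 weeks by withdrawal of tetracycline. As a model, BCR-ABL alone is limited to the chronic phase. The BC CML mouse carries the same transgenes without miR-142, which both it and the miR-142 KO mouse lack in every tissue throughout life. The design asks what the loss of miR-142 does to LSKs with BCR-ABL and without it.

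In hematopoietic cells, cytokine receptors activate JAK kinases, which phosphorylate STAT5, and BCR-ABL keeps STAT5 phosphorylated without a cytokine. Active STAT5 binds DNA at palindromic GAS elements and raises the CIS and SOCS proteins, which dock on receptors or JAKs through an SH2 domain, block the signal and recruit a ubiquitin ligase through the SOCS box, so the pathway limits itself. The same factor raises the PIM kinases, which have no need of an activating phosphorylation and support survival and protein synthesis, and oncostatin M, a cytokine of the IL-6 family.

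The sequences bear on both inputs of the design: the element that STAT5 reads, and the microRNA that was deleted. The STAT5 consensus TTCNNNGAA, which reads the same on both strands, was searched in RefSeq promoters (GRCm38.p6, the patch release of mm10; 250 bases before to 50 after each gene start), which held 6 of the 8 genes; Osm and Socs2 were not examined. It was found in Cish and Socs3, and in 9.55% of the 27025 genes with a promoter. Cish held 2 matches, as 0.540% of genes with a promoter held 2 or more. They begin at the gene start and 11 bases after it, in the first exon (chr9:107296654-107296683, plus strand), and the Socs3 match begins 154 bases before the gene start (chr11:117969502-117969531, minus strand). Capitals mark the matches in these 30-base windows.
Cish promoter: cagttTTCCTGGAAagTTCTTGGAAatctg
Socs3 promoter: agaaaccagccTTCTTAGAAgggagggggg

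Both mature strands of the deleted microRNA are encoded by Mir142 on chromosome 11 (chr11:87756867-87756887 and chr11:87756903-87756925, plus strand), and capitals mark the seed, bases 2 to 8.
mmu-miR-142a-5p: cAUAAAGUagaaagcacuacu
mmu-miR-142a-3p: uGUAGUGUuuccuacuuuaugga
In the longest GENCODE vM21 3' UTR of each of 7 of the 8 genes (Pim2 was not examined), the 7 bases complementary to the 5p seed occurred once in Socs1 and once in Osm, against 15.8% of 12609 tested genes, and the complement of the 3p seed occurred in 0 of the 7, against 6.92% of tested genes. The capitals below mark these matches, at chr16:10783837-10783843 on the minus strand in Socs1 and chr11:4240592-4240598 on the plus strand in Osm. A match of this kind describes the letters only; no binding was measured.
Socs1 3' UTR: ttaggtaataaACTTTATtatga
Osm 3' UTR: gtgagcaagacACTTTATttatc

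Libraries held 16267965 to 24687077 counted reads. Mir142 had 94 to 127 counts in each WT library, 68 to 153 in each CP CML library and 0 in every miR-142 KO and BC CML library, where a count of 0 allows up to 3. The gate genes were present in every library, with Kit between 636 and 1286 CPM (read counts scaled by the library total) and Ly6a, which encodes Sca-1, between 32.1 and 155 CPM. Markers of other cell types were present too: the 13 neutrophil markers had sums of 1344 to 5039 CPM for WT, 2700.0 to 7744 for miR-142 KO, 4561 to 7684 for CP CML and 5757 to 8128 for BC CML. Most of this sum was Mpo, with means of 2001 CPM in WT and 4218 CPM in CP CML LSKs. Ltf, Camp, Ngp, S100a8, S100a9, Mmp8, Retnlg and Cxcr2 each averaged at or below 11.2 CPM in both groups. The 11 mast cell or basophil markers had sums of 97.7 to 627 CPM for WT, 289 to 2751 for miR-142 KO, 2084 to 4304 for CP CML and 5691 to 11767 for BC CML, and the 12 monocyte or macrophage markers had 245 to 1733, 316 to 1082, 1022 to 1370 and 1284 to 1651 CPM. The B lineage or plasma cell markers (9 genes) had sums of 70.9 to 1014 CPM for WT, 26.0 to 39.4 for miR-142 KO, 173 to 804 for CP CML and 26.5 to 39.0 for BC CML. Erythroid, megakaryocyte and T or NK cell markers summed to 306 to 775, 209 to 645 and 60.3 to 141 CPM over all libraries, and no marker of any of these lists was at 0 in all 24 libraries. In bulk RNA, fewer cells of a type and less RNA per cell cannot be told apart.

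Compared per kilobase of gene length, Pim1 stood far above the others. Its mean level was 117 to 157 CPM per kb over the 4 groups, and 97.8% of tested genes lay below its mean over all mice. Socs3 (10.96 to 51.2 CPM per kb) and Osm (13.9 to 35.1) followed, and Pim2 (9.85 to 16.2) and Pim3 (11.4 to 15.8) were near the middle of all tested genes. Cish (5.06 to 12.0), Socs2 (2.11 to 12.8) and Socs1 (2.27 to 4.79) were the lowest, with Socs1 resting on only 53 to 235 reads per library. The spread between groups had another order: the highest group mean was 6.05 times the lowest for Socs2, 4.67 times for Socs3 and 1.34 times for Pim1.

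**Figure D1:**
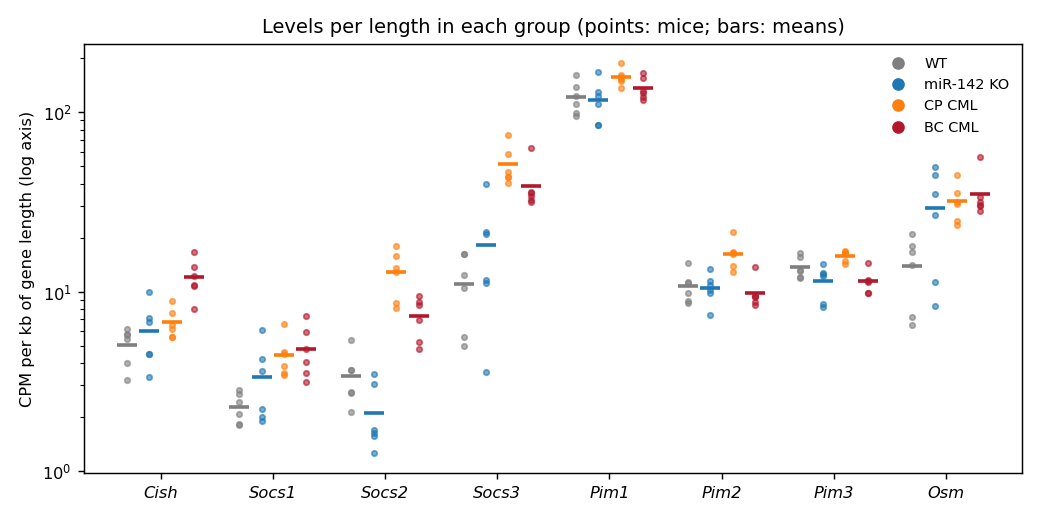
Level per kilobase of gene length (CPM per kb, log axis) of the 8 genes in the 4 groups; points are mice (6 per group) and short bars are group means. Pim1 is at or above 117 CPM per kb on average in every group, and Socs2 and Socs3 span the widest range of group means.

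**Figure D2:**
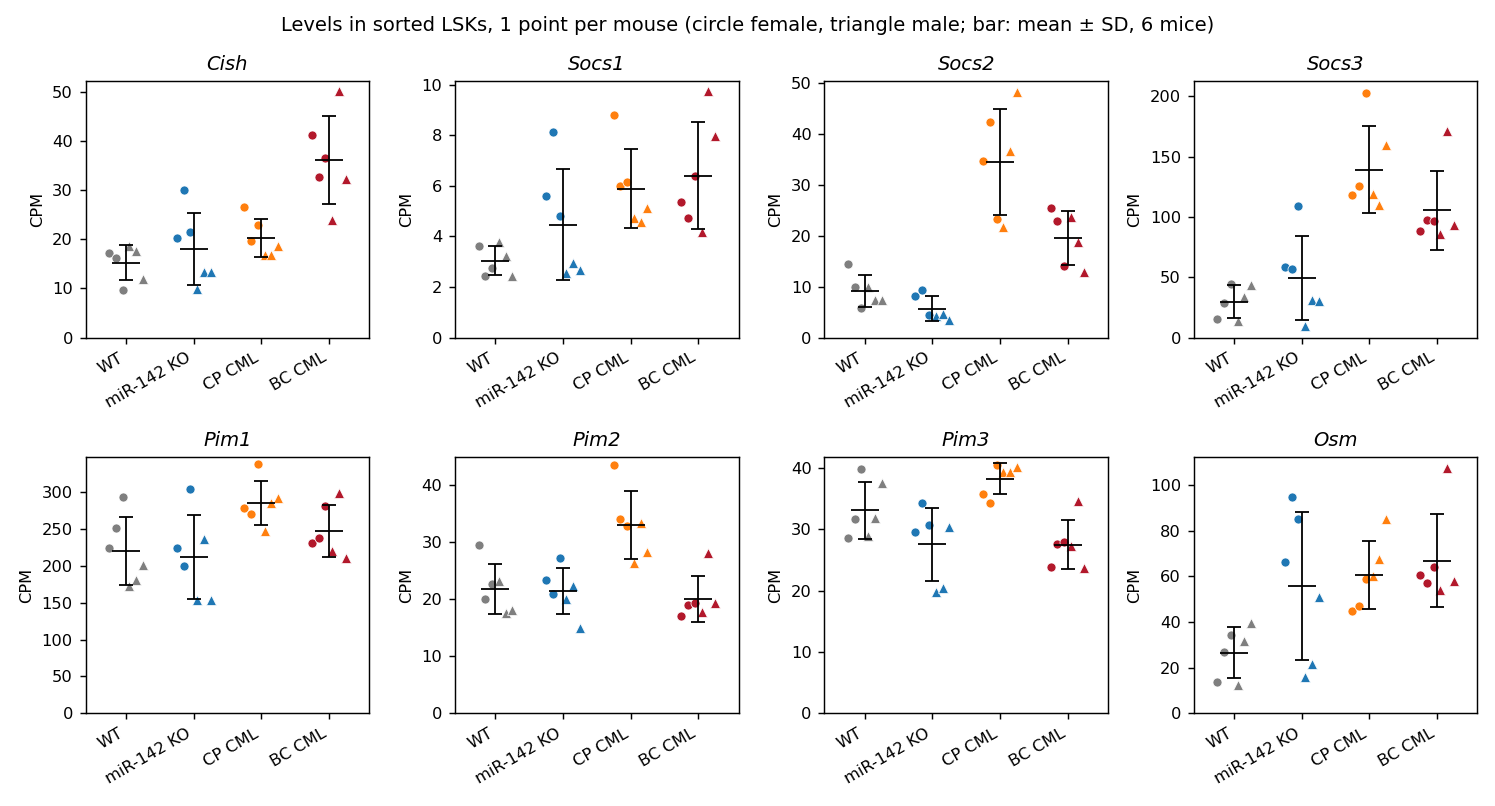
Level of each gene (CPM, linear axis from 0, own scale per panel) in each of 24 mice; circles are females, triangles males, and black bars the mean ± SD of 6 mice per group. Socs1, Socs2, Socs3 and Osm in all 6 CP CML mice are above all 6 WT mice, and Cish is highest in BC CML. BC CML replicate 5, a male, is the highest BC CML point for every gene but Socs2.

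Cish encodes CIS, the SH2 protein that blocks STAT5 docking sites on cytokine receptors. It was the one feedback inhibitor that was higher in BC CML LSKs than in CP CML LSKs. WT LSKs had 9.70 to 18.7 CPM (median 16.8) and miR-142 KO LSKs 9.99 to 29.98 CPM (median 16.9). CP CML LSKs had 16.7 to 26.7 CPM (median 19.2) and BC CML LSKs 23.996 to 50.3 CPM (median 34.7). The BC CML mice were thus all above the WT mice, and a single BC CML mouse reached down into the CP CML range. Cish was 1.87-fold higher in BC CML LSKs than in CP CML LSKs (log2 fold change 0.90 ± 0.22, SE; adjusted p = 0.00212, edgeR quasi-likelihood test with Benjamini-Hochberg adjustment over all 13520 genes, as for every adjusted p here). It was 2.06-fold higher in BC CML than in miR-142 KO LSKs (1.05 ± 0.22; adjusted p = 0.000797). The 3 lower groups did not differ from their neighbours past the threshold: the log2 difference of CP CML and miR-142 KO was 0.14 (95% interval -0.31 to 0.59) and that of miR-142 KO and WT 0.32 (-0.13 to 0.78). CP CML exceeded WT by 0.47 ± 0.22 (adjusted p = 0.0864), which passed without miR-142 KO replicate 2 (adjusted p = 0.0473).

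Socs1, which inhibits the JAK kinases directly, was low in all groups and was higher with BCR-ABL than in WT LSKs. WT LSKs had 2.42 to 3.77 CPM (median 2.998) and miR-142 KO LSKs 2.55 to 8.16 CPM (median 3.87). In CP CML LSKs there were 4.58 to 8.79 CPM (median 5.57) and in BC CML LSKs 4.19 to 9.78 CPM (median 5.88). Every BCR-ABL mouse lay above every WT mouse, and the miR-142 KO mice ran from the WT range up to near the top of the BCR-ABL ranges. Socs1 was 2.01-fold higher in CP CML than in WT LSKs (log2 1.01 ± 0.26; adjusted p = 0.00342) and 2.29-fold higher in BC CML than in WT LSKs (1.19 ± 0.26; adjusted p = 0.000374). In the order BC CML, CP CML, miR-142 KO, WT, no neighbours passed the test, with log2 differences of 0.19 (-0.34 to 0.71), 0.38 (-0.15 to 0.91) and 0.62 (0.08 to 1.17; adjusted p = 0.0657). The last of these passed without any one of miR-142 KO replicates 4, 5 and 6 (adjusted p = 0.0279, 0.0367 and 0.0341), which are its 3 males. BC CML exceeded miR-142 KO by 0.57 ± 0.26 (adjusted p = 0.0800), or by 0.82 without miR-142 KO replicate 2 (adjusted p = 0.0111), and without that mouse CP CML exceeded miR-142 KO by 0.65 (adjusted p = 0.0385).

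Socs2, which acts on receptors of the growth hormone, erythropoietin and KIT families, had the widest range of group means of the 8. WT LSKs had 5.75 to 14.5 CPM (median 8.62) and miR-142 KO LSKs 3.37 to 9.35 CPM (median 4.47). The CP CML group had 21.7 to 48.1 CPM (median 35.6) and BC CML LSKs 12.8 to 25.5 CPM (median 20.7). All CP CML mice were above all mice without BCR-ABL, the BC CML mice were all above the miR-142 KO mice, and the ranges of CP CML and BC CML overlapped. Socs2 was 3.93-fold higher in CP CML than in WT LSKs (log2 1.97 ± 0.26; adjusted p = 4.49e-06) and 3.58-fold higher in BC CML than in miR-142 KO LSKs (1.84 ± 0.27; adjusted p = 1.95e-05). BC CML was below CP CML by a log2 of -0.74 ± 0.25 (adjusted p = 0.0220), and miR-142 KO differed from WT by -0.61 ± 0.27 (adjusted p = 0.0760). Single mice moved both across the threshold: the first was -0.64 without CP CML replicate 6 (adjusted p = 0.0597), and the second passed without WT replicate 3, miR-142 KO replicate 1 or miR-142 KO replicate 2 (adjusted p = 0.0440, 0.0437 and 0.0229). BC CML stayed above WT by 1.23 ± 0.26 (adjusted p = 0.000252), so that each of CP CML, BC CML and WT passed the test against the next in order, while WT and miR-142 KO did not.

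Socs3, which inhibits JAKs at receptors that use gp130 and at the G-CSF receptor, had the largest fold change of the 8 between CP CML and WT LSKs. WT LSKs had 13.5 to 44.1 CPM (median 31.2) and miR-142 KO LSKs 9.69 to 109.0 CPM (median 44.2). CP CML LSKs had 109.6 to 203 CPM (median 122) and BC CML LSKs 86.1 to 171 CPM (median 94.8). All BCR-ABL mice were above all WT mice, and the miR-142 KO mice spread over an 11.2-fold range that joined the others. Socs3 was 4.84-fold higher in CP CML than in WT LSKs (log2 2.27 ± 0.39; adjusted p = 7.96e-05) and 2.19-fold higher in BC CML than in miR-142 KO LSKs (1.13 ± 0.38; adjusted p = 0.0204). The latter was 0.94 without BC CML replicate 5 (adjusted p = 0.0562). BC CML and CP CML differed by -0.34 (-1.10 to 0.42), and miR-142 KO and WT by 0.80 (0.02 to 1.59; adjusted p = 0.102), a difference of 1.02 without miR-142 KO replicate 4 (adjusted p = 0.0170).

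Pim1, a short-lived kinase and classical cytokine response gene, was abundant everywhere and had the narrowest range of group means of the 8. WT LSKs had 173 to 294 CPM (median 213) and miR-142 KO LSKs 153 to 305 CPM (median 213). In CP CML LSKs there were 248 to 339 CPM (median 282) and in BC CML LSKs 211 to 299 CPM (median 235). All 4 ranges overlapped. Pim1 was 1.34-fold higher in CP CML than in WT LSKs (log2 0.42 ± 0.15; adjusted p = 0.0245). That call was lost without WT replicate 4 (adjusted p = 0.0564), WT replicate 5 (0.0531) or CP CML replicate 3 (0.0546). Of neighbours in the order CP CML, BC CML, WT, miR-142 KO, none passed: BC CML differed from CP CML by -0.15 (-0.45 to 0.16), BC CML from WT by 0.28 (-0.03 to 0.59; adjusted p = 0.0266 without WT replicate 3), and miR-142 KO from WT by 0.02 (-0.29 to 0.33). BC CML and miR-142 KO differed by 0.26 (-0.05 to 0.57), or 0.40 without miR-142 KO replicate 3 (adjusted p = 0.0192).

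Pim2, the family member tied to survival and translation in blood cells, was higher in CP CML LSKs than in each of the other 3 groups. WT LSKs had 17.6 to 29.5 CPM (median 21.3) and miR-142 KO LSKs 14.999 to 27.2 CPM (median 21.5). The CP CML group had 26.3 to 43.5 CPM (median 33.0) and BC CML LSKs 17.1 to 28.04 CPM (median 19.1). Among BC CML mice, replicate 5 alone reached the CP CML range, the others lying at or below 19.3 CPM. Pim2 was 1.57-fold higher in CP CML than in WT LSKs (log2 0.65 ± 0.14; adjusted p = 0.000933) and 1.52-fold higher than in miR-142 KO LSKs (0.61 ± 0.14; adjusted p = 0.00209), and it was lower in BC CML LSKs than in CP CML LSKs (-0.65 ± 0.14; adjusted p = 0.00106). WT, miR-142 KO and BC CML did not pass the test against each other, with log2 differences of 0.05 (-0.25 to 0.35) for miR-142 KO against WT and -0.05 (-0.35 to 0.25) for BC CML against miR-142 KO. The B lineage or plasma cell sum was below CP CML in BC CML LSKs and below WT in miR-142 KO LSKs, both without overlap, and its part in the Pim2 values was not tested.

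Pim3, which overlaps with its relatives in what it phosphorylates, was lower in BC CML LSKs than in CP CML LSKs. WT LSKs had 28.6 to 39.8 CPM (median 31.8) and miR-142 KO LSKs 19.8 to 34.3 CPM (median 29.95). CP CML LSKs had 34.3 to 40.4 CPM (median 39.4) and BC CML LSKs 23.6 to 34.6 CPM (median 27.4). The CP CML mice lay within 1.18-fold of each other and above all miR-142 KO mice, and BC CML replicate 5 alone overlapped them. The log2 difference of BC CML and CP CML was -0.41 ± 0.12 (adjusted p = 0.0111). CP CML and WT differed by 0.26 (0.01 to 0.52; adjusted p = 0.0864), or 0.34 without WT replicate 3 (adjusted p = 0.0293). The remaining neighbours were miR-142 KO against WT at -0.19 (-0.45 to 0.06) and BC CML against miR-142 KO at 0.04 (-0.21 to 0.30).

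Osm, the secreted cytokine of the set, was higher in all 3 altered groups than in WT LSKs. WT LSKs had 12.4 to 39.7 CPM (median 29.2) and miR-142 KO LSKs 15.8 to 94.8 CPM (median 58.5). In CP CML LSKs there were 44.8 to 85.0 CPM (median 59.5) and in BC CML LSKs 53.8 to 108 CPM (median 59.1). The BCR-ABL mice were all above the WT mice, whereas the miR-142 KO mice covered both ranges. Mean Osm was 82.1 CPM in miR-142 KO females and 29.4 CPM in miR-142 KO males. In WT LSKs the means were 24.9 CPM in females and 27.98 CPM in males. Osm was 2.37-fold higher in CP CML than in WT LSKs (log2 1.25 ± 0.35; adjusted p = 0.00647), 2.73-fold higher in BC CML than in WT LSKs (1.45 ± 0.36; adjusted p = 0.00108) and 2.22-fold higher in miR-142 KO LSKs than in WT LSKs (1.15 ± 0.35; adjusted p = 0.0134). With only the 12 libraries of that last pair in the fit, its adjusted p was 0.0676. The 3 higher groups did not pass the test against each other: BC CML differed from CP CML by 0.20 (-0.51 to 0.92), CP CML from miR-142 KO by 0.10 (-0.62 to 0.81) and BC CML from miR-142 KO by 0.30 (-0.41 to 1.01). With the summed level of immediate early genes as a covariate (an alternative chosen after the data were seen), BC CML was higher than CP CML by 0.81 (adjusted p = 0.000181) and than miR-142 KO by 0.56 (adjusted p = 0.00311).

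**Figure D3:**
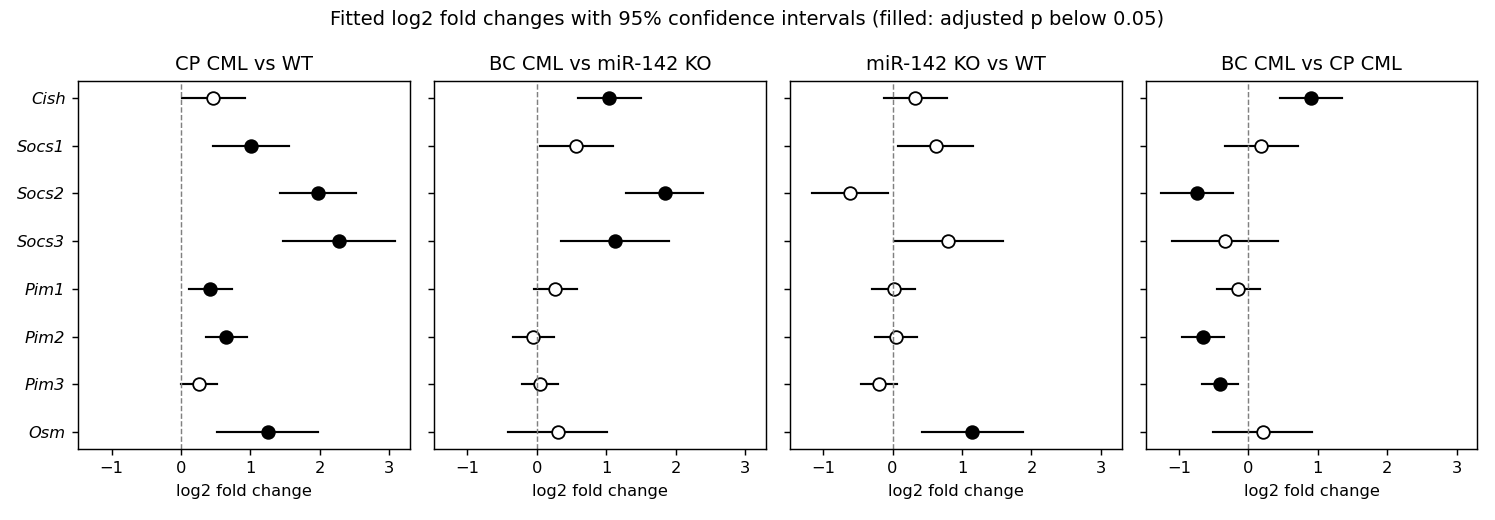
Fitted log2 fold change (x axis) of each gene (y axis) in 4 comparisons; lines are 95% confidence intervals, and filled points passed an adjusted p of 0.05 in the edgeR quasi-likelihood test. BCR-ABL with miR-142 present (CP CML vs WT) has 6 filled points, all to the right of 0, and BC CML vs CP CML has 1 to the right (Cish) and 3 to the left (Socs2, Pim2, Pim3).

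With miR-142 present, most of the set was higher with BCR-ABL than without it. In all, 6 of the 8 genes were higher in CP CML than in WT LSKs (Socs1, Socs2, Socs3, Pim1, Pim2 and Osm), 0 were lower, and Cish and Pim3 had adjusted p-values of 0.0864. With only the 12 libraries of this pair in the fit, Cish (0.47; adjusted p = 0.0282) and Pim3 (0.26; adjusted p = 0.0252) passed too, which makes 8 of 8. In the fit of all 24 libraries, 22.5% of all genes tested were called higher and 22.9% lower, which are the shares to set beside the 6 of 8. The share for the fit of 12 libraries is not given here, so the 8 of 8 stands without one. In 4 of the 8 (Socs1, Socs2, Socs3 and Osm) the groups did not overlap, as in 22.1% of all genes tested. The median log2 fold change of the 8 was 0.83, beside -0.02 over all genes tested. The mRNAs of STAT5 itself did not rise: Stat5a and Stat5b were slightly lower in CP CML than in WT LSKs, with log2 fold changes of -0.15 ± 0.05 (adjusted p = 0.0210) and -0.12 ± 0.04 (adjusted p = 0.0156). Only mRNA was measured, so STAT5 phosphorylation is not part of these values.

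Other members of the pathway moved in both directions in that comparison. Of 17 receptors that signal through STAT5, 5 were higher and 3 lower in CP CML than in WT LSKs, with a median log2 of 0.10. The 2 with the smallest p were Csf2rb (1.69 ± 0.19; adjusted p = 3.85e-07), the shared beta chain of the IL-3, IL-5 and GM-CSF receptors, and its near copy Csf2rb2 (2.63 ± 0.34; adjusted p = 3.60e-06). How reads that match both genes were counted is not given in the sources used here, so the calls of this pair are uncertain. Of 11 JAK and STAT genes, 2 were higher and 7 lower, and Stat3 was higher by 0.29. Of 11 tested among 12 other known STAT5 targets, 4 were higher and 1 lower, with Il2ra, the alpha chain of the IL-2 receptor, at 2.59 ± 0.60 (adjusted p = 0.00144) and Id1, an inhibitor of helix-loop-helix factors, at 1.39 ± 0.36 (adjusted p = 0.00345). The SOCS genes outside the set and the subunits of their ubiquitin ligase did not share the rise, with 0 of 9 higher and 2 lower, namely Socs5 (-0.59 ± 0.10) and Socs4 (-0.17 ± 0.07). Beside the all-gene median of -0.02, the medians of the 7 pathway lists ran from -0.14 (JAK and STAT genes) to 0.20 (other STAT5 targets).

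The partners of oncostatin M and the targets of the PIM kinases were mixed as well. Of 9 tested in the oncostatin M axis, 4 were higher and 2 lower in CP CML than in WT LSKs. Lifr, which encodes a LIF receptor chain, was at 15.1 CPM in CP CML and 6.66 in WT (log2 1.24), and the cytokine Ctf1 was 0.693 against 1.77 CPM (-1.30). Osmr, the oncostatin M receptor, stayed at or below 1.57 CPM in every library and differed by -0.85 ± 0.75 between CP CML and WT (adjusted p = 0.370); Il11 was the gene of the axis not tested. Of 11 PIM substrates 2 were higher and 3 lower, with Foxo3, a factor that opposes growth, at -0.52 and Numa1, a spindle protein, at -0.29. Of 12 other negative regulators of JAK and STAT, 3 were higher and 3 lower, and the phosphatase gene Ptpn1 (0.44 ± 0.06) and Pias1 (-0.23 ± 0.05), an inhibitor of STAT DNA binding, had the smallest p. Mast cell or basophil markers differed as well: 9 of 11 were higher in CP CML than in WT LSKs, and the ranges of their sum did not overlap, so that their part in these calls cannot be told apart from that of BCR-ABL. Erythroid markers had sums of 429 to 584 CPM in CP CML against 629.5 to 775 in WT, without overlap, and neutrophil markers were higher in 7 of 13 and lower in 1, with overlapping sums. Their part was not tested.

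Without miR-142, the feedback inhibitors Cish, Socs2 and Socs3 were higher with BCR-ABL, in BC CML against miR-142 KO LSKs. This is 3 of 8 against 20.3% of all genes tested called higher, and 0 of 8 were lower against 19.3%. Socs2 alone had groups that did not overlap (1 of 8 against 11.2% of all genes). The 3 Pim genes had log2 values between -0.05 and 0.26, none past the threshold, and the median of the 8 was 0.44 beside -0.02 over all genes tested. Of the receptors 2 of 17 were higher and 4 lower, of the JAK and STAT genes 0 of 11 higher and 5 lower, and of the other STAT5 targets 0 of 11 higher and 2 lower. The other SOCS genes and ligase subunits had 2 of 9 higher and 0 lower, the other negative regulators 3 of 12 higher and 2 lower, the oncostatin M axis 1 of 9 higher and 2 lower, and the PIM substrates 3 of 11 higher and 3 lower. List medians lay between -0.14 and 0.20. Mast cell or basophil markers were higher in 9 of 11 here too, again with no overlap of the summed level (289 to 2751 against 5691 to 11767 CPM), and their part cannot be told apart from that of BCR-ABL. The monocyte or macrophage sums did not overlap either, and their part was not tested.

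In LSKs without BCR-ABL, Osm was the one gene of the set called with the loss of miR-142. It was higher in miR-142 KO LSKs than in WT LSKs, which is 1 of 8 against 19.9% of all genes tested, and 0 of 8 were lower against 16.4%. Most of the rise in mean Osm lay in the females, at 82.1 CPM against 24.9 CPM in WT females. The miR-142 KO males averaged 29.4 CPM against 27.98 CPM in WT males. Among these males replicate 6 alone, at 50.8 CPM, was above the WT range. The miR-142 KO effect was not tested within each sex. The groups overlapped in all 8 genes, while 14.3% of all genes had none. Unadjusted p was under 0.05 for 4 of the 8, Socs1, Socs2, Socs3 and Osm, of which Socs2 was below WT. Stat5a was higher by 0.25 ± 0.05 (adjusted p = 0.000435) and Stat5b differed by -0.05 ± 0.04 (adjusted p = 0.381). Of 17 receptors 8 were higher and 2 lower, and of 11 other STAT5 targets 5 were higher and 1 lower. The counts were 1 higher and 1 lower of 11 JAK and STAT genes, 4 higher and 2 lower of 12 other negative regulators, and 2 higher and 2 lower each among 9 other SOCS and ligase genes, 9 genes of the oncostatin M axis and 11 PIM substrates. List medians lay between -0.03 and 0.22, and the median of the 8 was 0.19 beside 0.01 over all genes tested. Neutrophil markers were also called higher in miR-142 KO LSKs, 10 of 13 with overlapping sums, as were 7 of 11 mast cell or basophil markers. Among the miR-142 KO mice the neutrophil sum and Osm had different orders. Replicate 3 had the lowest neutrophil sum (2700 CPM) with Osm at 85.1 CPM. Replicates 4 and 5 had sums of 6347 and 6929 CPM with the lowest Osm levels, 15.8 and 21.5 CPM. The mast cell or basophil sum was lowest in these same mice, at 500 and 289 CPM against 686 to 2751 CPM in the others. Replicate 3, at 686 CPM, nevertheless had more Osm than replicate 6, at 2082 CPM. Summed levels without overlap between miR-142 KO and WT were those of T or NK cell markers (116 to 141 against 60.3 to 103 CPM), erythroid markers (394 to 552 against 629.5 to 775), the 8 LSK gate genes (2322 to 2946 against 3119 to 4130.0) and B lineage or plasma cell markers. Of the 9 T or NK cell markers 5 were tested, with 3 higher and 1 lower. In WT LSKs Nkg7 averaged 65.1 CPM of a mean T or NK sum of 81.0, while Cd3e, Cd3d and Cd8a averaged at or below 0.229 CPM. The part of these lists was not tested.

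With BCR-ABL, the loss of miR-142 went with calls in both directions. Among the feedback inhibitors Cish was higher and Socs2 lower in BC CML LSKs than in CP CML LSKs, while Socs1 and Socs3 did not pass. Among the kinases Pim2 and Pim3 were lower and Pim1 did not pass, and neither did Osm. This is 1 of 8 higher against 20.4% of all genes tested, 3 of 8 lower against 17.6%, and 0 of 8 without overlap between groups against 21.2%. The median of the 8 was -0.24, beside 0.01 over all genes tested. Stat5b was lower by -0.15 ± 0.04 (adjusted p = 0.00466) and Stat5a differed by 0.10 ± 0.05 (adjusted p = 0.124).

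Around the set, receptors had the most calls in BC CML against CP CML LSKs, 8 of 17 higher and 5 lower. Il2ra had the largest fold change of those named, with 131 ± 34.1 CPM in BC CML and 12.8 ± 5.73 CPM in CP CML (SD, n = 6; log2 3.43 ± 0.52; adjusted p = 1.95e-05). Without BCR-ABL it was at 2.21 CPM in WT and 77.6 CPM in miR-142 KO LSKs. The G-CSF receptor Csf3r was higher by 0.49, and the stem and progenitor cell receptors Flt3 and Kit were lower by -1.23 and -0.46. Il2ra is also one of the other known STAT5 targets, of which 2 of 11 were higher and 2 lower. The survival gene Bcl2l1 was higher (0.34 ± 0.06), while the D-type cyclin Ccnd2 (-0.53 ± 0.08) and Tnfrsf13b (-0.49 ± 0.11) were lower. Of the other SOCS genes and ligase subunits, Rbx1 (0.39 ± 0.06) and Cul5 (0.22 ± 0.06), the ring and scaffold subunits, were higher and 0 of 9 lower, while Elob and Eloc both differed by 0.18 (adjusted p = 0.0675 and 0.0930).

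In the oncostatin M axis Il6st, which encodes the shared receptor chain gp130, was higher in BC CML LSKs than in CP CML LSKs at 249 ± 43.9 against 138 ± 18.7 CPM (SD, n = 6; log2 0.92 ± 0.15; adjusted p = 5.63e-05). Lif was higher by 1.29, and Lifr and Clcf1 were lower by -1.08 and -0.81. Of 9 tested in this axis 2 were higher and 2 lower. Among PIM substrates, also 2 of 11 higher and 2 lower, Akt1s1, which encodes an inhibitor of mTOR, had the smallest p of the genes named for BC CML against CP CML, at 74.9 ± 2.32 against 38.4 ± 2.04 CPM (SD, n = 6; log2 1.03 ± 0.04; adjusted p = 2.69e-14). It was at 69.5 ± 2.65 CPM in miR-142 KO and 42.3 ± 2.64 CPM in WT LSKs. Cdc25c, a cell cycle phosphatase, was higher by 0.34, and Map3k5 and Numa1 were lower by -0.25 and -0.23. JAK and STAT genes had 0 of 11 higher and 2 lower, Stat5b and Stat4 (-0.16), with Jak3 at -0.18 (adjusted p = 0.0926). Of the other negative regulators 4 of 12 were higher and 2 lower, led by Cblb (-0.41), Sh2b3 (0.38), Pias2 (0.16) and Ptpn6 (0.14). The medians of the 7 pathway lists ran from -0.10 (oncostatin M axis) to 0.17 (receptors). The mast cell or basophil sum did not overlap between these groups either, and 6 of 11 markers were higher and 1 lower, so its part cannot be told apart from that of miR-142. The LSK gate genes (2181 to 2566 CPM in BC CML, 2815 to 3285 in CP CML) and the B lineage or plasma cell markers also had sums without overlap, and their part was not tested.

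The effect of miR-142 loss was compared directly between the backgrounds with and without BCR-ABL. The same test compares the effect of BCR-ABL with and without miR-142. By the edgeR quasi-likelihood test 0 of the 8 genes had a difference of effects past the threshold, against 3.99% of all genes tested, and 2 of 8 had an unadjusted p under 0.05. Pim2 was nearest, with a difference of -0.70 ± 0.20 (adjusted p = 0.0535), since miR-142 loss left it at 0.05 without BCR-ABL and -0.65 with it. It was called, with an adjusted p of 0.0167 to 0.0496, by DESeq2, edgeR's likelihood ratio test, RLE size factors, a filter of 1 CPM in 6 libraries and sex as a covariate, and without any one of 8 mice, including BC CML replicate 5 (-0.83; adjusted p = 0.0184). Socs3 differed by -1.14 (-2.24 to -0.05; adjusted p = 0.233), Osm by -0.95 (-1.96 to 0.07; adjusted p = 0.300) and Cish by 0.58 (-0.06 to 1.22; adjusted p = 0.311). That Cish passed in BC CML against CP CML and not in miR-142 KO against WT is therefore no shown difference between backgrounds, and the same holds for Socs1, Pim1, Pim2 and Osm, which passed in CP CML against WT and not in BC CML against miR-142 KO.

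Across the design's diagonals, 5 of 8 genes were higher in BC CML than in WT LSKs (the 4 feedback inhibitors and Osm) against 32.9% of all genes tested. In CP CML against miR-142 KO LSKs 5 of 8 were higher (Socs2, Socs3 and the 3 kinases) against 17.2%, with Pim1 the least firm at 0.41 ± 0.15 (adjusted p = 0.0358, and 0.0576 to 0.0940 without any one of 4 mice). These comparisons share libraries with the others.

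**Figure D4:**
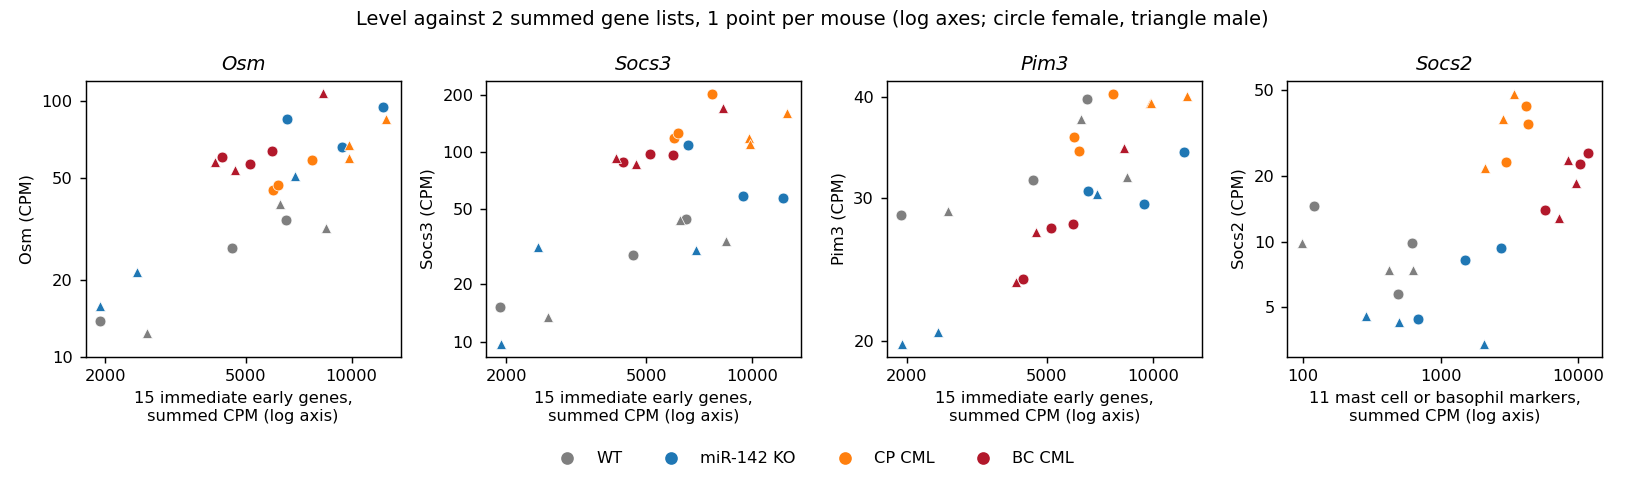
Level of Osm, Socs3 and Pim3 (CPM, log axis) against the summed CPM of 15 immediate early genes (log axis), and of Socs2 against the summed CPM of 11 mast cell or basophil markers (log axis); each point is 1 of 24 mice, coloured by group, circles females and triangles males. The 4 mice with the lowest immediate early sums (1928 to 2630 CPM) have the lowest Osm of their groups, WT and miR-142 KO, and the mast cell or basophil sums of the BC CML mice (5691 to 11767 CPM) lie to the right of those of the CP CML mice (2084 to 4304 CPM).

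Within groups, Osm, Socs3 and Pim3 varied together. The spread of Socs3 and Osm within groups (an SD of 0.76 and 0.70 on the log2 scale) exceeded that of 95.3% and 94.1% of tested genes, whose median was 0.16. With group means subtracted, Pearson's r over the 24 libraries was 0.91 for Osm and Pim3, 0.88 for Osm and Socs3 and 0.79 for Socs3 and Pim3. Cish and Socs1 formed another pair at 0.85, while Socs2 had values between -0.03 and 0.45 with the other 7. These are descriptions of libraries that share depth and processing.

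The 15 immediate early genes, which cells switch on within minutes of stimulation or handling, moved with these levels. Their sum was 1928 to 8453 CPM for WT, 1935 to 12249 for miR-142 KO, 5983 to 12548 for CP CML and 4095 to 8289 for BC CML. The lowest mice were WT replicates 1 and 4 and miR-142 KO replicates 4 and 5, which were also lowest in Osm. Of the 15, 3 were called higher in CP CML than in WT LSKs, against 22.5% of all genes tested, Ier3 (0.90) and Junb (1.04) with the smallest p. In BC CML LSKs 2 were lower than in CP CML LSKs, against 17.6% of all genes tested, namely Egr1 (-1.16) and Ier2 (-0.63). Nr4a1 was at -1.21 and Egr2 at -1.02 there (adjusted p = 0.0530 and 0.0780). Their sum was entered as a covariate. The log2 differences of Socs3 and Osm between CP CML and WT were then 1.73 (adjusted p = 0.000197) and 0.52 (adjusted p = 0.0115). Cish, Socs2, Pim2 and Pim3 stayed called between BC CML and CP CML, at 1.02, -0.73, -0.70 and -0.23, and Pim3 was called in miR-142 KO against WT (-0.29; adjusted p = 0.00218), while Pim1 was no longer called between CP CML and WT (0.33; adjusted p = 0.1098). The covariate is itself a readout of the same libraries.

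The genes whose log2 CPM followed each member most closely over the 24 libraries were mostly outside the pathway lists. Socs2 was nearest to Mrgprx2, Mrgprb2 and Slc4a4 (r = 0.94, 0.94 and 0.93; 0.66, 0.68 and 0.76 with group means removed), of which the first pair belong to the Mas-related receptors that mast cells carry. Osm was nearest to Tnfrsf12a, Junb and Id1 (r = 0.92 each), with Junb at 0.97 within groups. Pim3 was nearest to Tnf, Rasd1 and Eif1 (0.89, 0.89 and 0.87), and Socs3 to Paf1, Gadd45b and Pmm2 (0.92, 0.92 and 0.91). Cish was nearest to Cacng8, Ahr and Neb (0.89, 0.89 and 0.87), and Socs1 to Tmem158, Itpr2 and Slc6a9 (0.85, 0.84 and 0.83). Pim1 (Unc45a, Btbd19 and Rpph1) and Pim2 (Pdcd1lg2, Scn11a and Dlk1) had no gene above 0.815.

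Averaged over the 4 groups, sex made no called difference. Males and females differed in 0 of 8 genes by the edgeR quasi-likelihood test, against 0.651% of all genes tested, and in 0 of 8 by DESeq2. All 8 fitted values were below 0, that is lower in males, and 2 had an unadjusted p under 0.05: Pim1 at -0.28 ± 0.09 (adjusted p = 0.141) and Cish at -0.32 ± 0.14 (adjusted p = 0.249).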

How the data were processed

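Bone marrow LSKs of 24 mice were profiled by bulk RNA-seq (Kapa mRNA HyperPrep libraries, paired reads). The counts are whole reads per gene as deposited by the authors. Per the submitters' processing notes and the study's methods, reads were trimmed with Trimmomatic, aligned to mm10 with STAR 2.6.0 and counted with HTSeq 0.11.1. The annotation and strand setting are not given in the sources used here. The gene length that accompanies the deposited counts was used only for levels per kb. The study's methods state another number of mice per group than the 6 analysed here.

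Counts were fitted in R 4.3.3 with edgeR 4.0.16 (TMM, filterByExpr with a minimum of 10 counts and a total of 15, all 24 libraries, quasi-likelihood F test), with Benjamini-Hochberg adjustment over 13520 genes and a threshold of 0.05. Fold changes are on the log2 scale with SE, and intervals are 95% confidence intervals. CPM values were divided by the raw library totals. The scripts were tested on simulated data. DESeq2 1.42.0 and other settings were alternatives. Libraries are of separate mice, and p-values measure the spread between them.

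The 8 genes were always named. From each pathway list, up to 4 genes with the smallest p in BC CML against CP CML and up to 2 in CP CML against WT were named, with Stat5a and Stat5b and the 3 genes most correlated with each member (log2 CPM, prior count 2). A gene that this rule names is not reported here. Other values of these named genes were added to the text after being seen. The members and lists were chosen with earlier results of these data known. The covariate made of immediate early genes and the test of sex within groups were chosen after seeing the data.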

Additional observations from a re-analysis of the deposited data

Results flagged for a closer look

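In 3 of 32 gene and group combinations the highest mouse stood apart from the other 5 by Dixon's test, where chance gives about 5% of groups, and all 3 were the same mouse, BC CML replicate 5, a male. Its Socs3 level was 171 CPM against 97.4 in the next mouse, its Pim2 level 28.04 against 19.3 CPM and its Osm level 107.6 against 64.1 CPM. The same mouse was the highest BC CML mouse for Cish, Socs1, Pim1 and Pim3, which Dixon's test did not flag, and not for Socs2. Its immediate early gene sum was also the highest of the BC CML mice, at 8289 CPM against 4095 to 5948 in the others. Without it, Socs3 no longer passed in BC CML against miR-142 KO LSKs (log2 0.94; adjusted p = 0.0562), and the difference of miR-142 effects in Pim2 passed (-0.83; adjusted p = 0.0184). The cause of its levels was not tested.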

How the results depend on the processing

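No gene of the set that was called changed direction under any alternative: 34 values did so and 0 of them were of called results. Of 1536 values that leave out one mouse, 1481 kept their direction and side of the threshold, 9 lost the call and 21 gained it. Of 496 values under the other planned settings 481 were kept, 1 lost and 11 gained the call, and of 56 with the immediate early covariate 43 were kept, 2 lost and 5 gained. For the difference of miR-142 effects the count of genes called was 1 (Pim2), in place of 0, with the likelihood ratio test, DESeq2, RLE factors, the filter of 1 CPM in 6 libraries and sex as a covariate. For miR-142 KO against WT it was 3 with DESeq2, 0 with only the compared libraries and 2 with the immediate early covariate, for CP CML against WT it was 8, in place of 6, with only the compared libraries, and for BC CML against miR-142 KO it was 5 with that covariate. Leaving out one mouse gave 1 to 3 genes for miR-142 KO against WT and 0 to 1 for the difference. The shares of all genes called under these settings are not given here. From the values given here, a change in calls over all genes therefore cannot be told apart from a change in this set. The values that changed sign were near 0 or not called. With upper quartile scaling Pim1 and Pim2 in miR-142 KO against WT were -0.037 and -0.0056, and with sex as a covariate Pim2 in BC CML against WT was 0.016. With the immediate early covariate Socs3 in BC CML against CP CML was 0.11, Pim1 in miR-142 KO against WT -0.015, the difference of effects 0.060 for Pim3 and 0.035 for Osm, Pim2 in BC CML against WT 0.027 and Osm in CP CML against miR-142 KO -0.25. Leaving out one mouse moved Pim1 in miR-142 KO against WT from -0.12 to 0.13, Pim2 there from -0.038 to 0.15, Pim2 in BC CML against miR-142 KO from -0.17 to 0.035, Pim3 there from -0.045 to 0.11, Pim2 in BC CML against WT from -0.12 to 0.10, Osm in CP CML against miR-142 KO from -0.10 to 0.32, Osm in males against females from -0.24 to 0.012 and the difference of effects in Socs2 from -0.31 to 0.041. Over all genes, upper quartile scaling lowered the share of higher calls from 53.7% to 42.4% in BC CML against CP CML, from 54.7% to 42.0% in miR-142 KO against WT and from 50.6% to 40.2% in BC CML against WT. Causes were not tested. No paired analysis was possible because the labels give mouse numbers that groups do not share. Socs1 rests on the fewest reads (53 to 235 per library).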

Other observations

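Sex within each group was tested in a fit added after the data were seen. In miR-142 KO LSKs Socs1 was lower in the 3 males than in the 3 females, by a log2 of -1.20 ± 0.26 (adjusted p = 0.0266, edgeR quasi-likelihood test). Cish (-0.98; adjusted p = 0.0505), Socs3 (-1.68; adjusted p = 0.0717) and Osm (-1.50; adjusted p = 0.0731) missed the threshold there. In CP CML LSKs, Osm was at 0.48 (adjusted p = 0.652), with all 3 males above all 3 females. The test of whether the sex difference varied among the 4 groups gave adjusted p-values of 0.328 for Socs1, 0.460 for Osm, 0.521 for Cish and 0.595 for Socs3, so a sex difference particular to miR-142 KO LSKs was not shown. Of 13520 genes, 1 passed that test. The miR-142 KO males 4 and 5 also had the lowest immediate early gene sums of their group, 1935 and 2461 CPM, and the part of that was not tested.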
